A study of Homo sapiens with 8 samples.

Results

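Death receptors are cell-surface proteins that start apoptosis from outside the cell. When FAS or a TRAIL receptor binds its ligand, the adaptor FADD joins the receptor tail and recruits caspase-8, which cuts itself free and activates the executioner caspases. The protein of CFLAR, c-FLIP, resembles caspase-8 without its protease activity and tunes that step. XIAP binds and blocks active caspases further down, and BIRC5 (survivin), of the same inhibitor family, also works in mitosis as part of the chromosomal passenger complex. The genes described here are FAS, TNFRSF10A, TNFRSF10B and TNFRSF10D (receptors), FADD (adaptor), CASP8 and CFLAR (initiator caspase and its regulator), and XIAP and BIRC5 (inhibitors of apoptosis). They were chosen by name for these roles, with earlier results of these data known. They make up 9 genes of 78932 in the count tables and of 12618 tested.

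All 8 libraries came from HCT116, an epithelial line from a human colorectal cancer, labelled dTAG-NUDT21 for a degradation tag on NUDT21, the RNA-binding subunit of CFIm (cleavage factor Im), a complex that recognises UGUA upstream of poly(A) sites in nascent RNA. Every culture received JTE-607, which inhibits CPSF73, the nuclease that cuts RNA at poly(A) sites. To it was added DMSO, the solvent, in 4 libraries and dTAGV1, a small molecule that sends tagged proteins to degradation, in the other 4, so the comparison shows dTAGV1 on top of JTE-607. Doses, times and the number of clones are not given in the sources used here, and cells without JTE-607 were not analysed here. The labels number the replicates without saying whether they are separate cultures, so p-values measure the spread between these libraries, which may be technical.

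Reads came from the 3′ ends of poly(A) RNA, and 3447842 to 4291256 sense-strand reads per library were assigned to genes. NUDT21 itself had 104 to 139 counts with DMSO and 15 to 43 with dTAGV1, a log2 fold change of -1.95 (dTAGV1 over DMSO). NUDT21 protein was not measured here. Of 8 epithelial markers, 7 had a mean of at least 10 CPM (counts per 1000000 after TMM scaling, a correction for library composition). All 8 together summed to 7464 to 8057 counts with DMSO and 4968 to 6205 with dTAGV1. By the test below 5 of the 8 differed, where 57.9% of all tested genes did. EPCAM was higher, at a log2 fold change of 0.28. KRT18, KRT19, CLDN4 and ESRP1 were lower, at -0.60, -0.65, -0.48 and -1.07. The 6 leukocyte markers summed to at most 10 counts in a library and the 4 endothelial markers to at most 12. The 6 fibroblast markers summed to 37 to 76 counts, nearly all COL1A1, with COL3A1, DCN and LUM at 0. Mitochondrial genes took 7.98% to 8.56% of counts with DMSO and 9.22% to 10.4% with dTAGV1, and the part of these genes and of the epithelial markers in the results below was not tested.

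All 9 genes passed edgeR's quasi-likelihood test at a Benjamini-Hochberg adjusted p under 0.05, on a background where 57.9% of all tested genes did. The 4 receptors, CASP8 and CFLAR rose upon dTAGV1, and FADD, XIAP and BIRC5 fell. Among all tested genes 29.4% were higher and 28.5% lower. The 9 members' median log2 fold change was 0.46, against 0.01 over all tested genes, and the median absolute log2 fold change 0.62 against 0.42. The DMSO and dTAGV1 libraries did not overlap for any of the 9, as for 50.9% of tested genes. Sense counts behind these values ran from 92, for FAS and FADD, to 1251, for BIRC5.

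**Figure D1:**
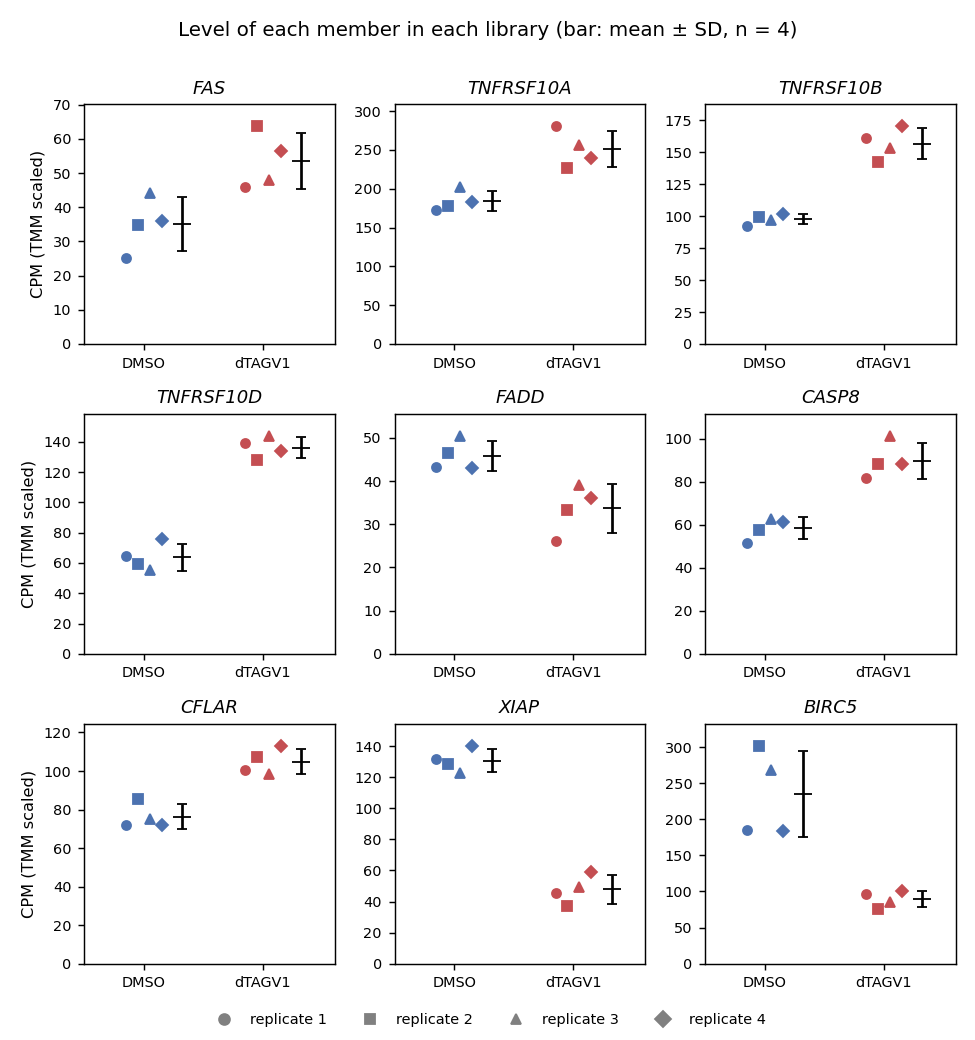
Level of each of the 9 genes in each library, in CPM after TMM scaling (vertical axes from 0), with one symbol per replicate and black bars for the mean ± SD (n = 4 per group). The receptors, CASP8 and CFLAR lie higher in all dTAGV1 libraries, and FADD, XIAP and BIRC5 lower. FAS shows the narrowest gap, from 44.3 to 45.9 CPM.

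The assay reads 3′ ends, and CFIm and CPSF73 act there, so the annotated poly(A) signals are shown for 5 of the members with a match. Each line gives 30 bases of the transcript, 5′ to 3′, from GENCODE 29 on GRCh38, written as DNA, with the signal in capitals (AATAAA or its variant ATTAAA).
FAS, chr10:89015754-89015783, plus strand: taaaagtacgtaATTAAAtaatgtttttgg
FADD, chr11:70207341-70207370, plus strand: taaggtaatcctATTAAAacacagctttac
CFLAR, chr2:201176651-201176680, plus strand: tttttgagcagcATTAAAactgttttactc
XIAP, chrX:123913936-123913965, plus strand: taaaacgtattcAATAAAatactattcttt
BIRC5, chr17:78225598-78225627, plus strand: ctcacaattgccAATAAAgtctcatgtggt
XIAP and BIRC5, the 2 most reduced members, both carry AATAAA, as does TNFRSF10D, while FAS, FADD, CFLAR and TNFRSF10B carry ATTAAA alone. In the last 50 bases of 10637 tested protein-coding genes, 63.8% held AATAAA, 19.0% ATTAAA (with or without AATAAA) and 78.8% either. TNFRSF10D holds both motifs. Neither was found for TNFRSF10A. For CASP8 the principal transcript searched ends at 201286594, 1117 bases before the gene's most distal end, so its far 3′ end was not searched. The other 8 members were searched at their most distal annotated end. Only the transcript strand was searched, for each motif on its own, so that matches may overlap. The CFIm motif TGTA (UGUA in RNA) occurs 2 times in the last 100 bases of XIAP and of TNFRSF10B, once in that of TNFRSF10A and not in FAS, TNFRSF10D, FADD, CFLAR or BIRC5. At least 1 TGTA lies there in 55.4% of tested protein-coding genes, and 2 or more in 21.5%. A match is a letter match, not a measured site.

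FAS (ENSG00000026103; GRCh38 chromosome 10, 88990582 to 89015785, plus strand) encodes the receptor of FAS ligand and is a known p53 target. It was measured at 25.1, 35.0, 44.3 and 35.9 CPM in DMSO replicates 1 to 4, and at 45.9, 63.7, 48.0 and 56.5 CPM in dTAGV1 replicates 1 to 4. All dTAGV1 libraries were above all DMSO libraries, though DMSO replicate 3 lay close to dTAGV1 replicates 1 and 3. The mean rose from 35.1 ± 7.84 to 53.5 ± 8.20 CPM (SD, n = 4 per group), or a log2 fold change of 0.61 ± 0.14 SE (edgeR, Benjamini-Hochberg adjusted p = 0.000782).

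The TRAIL receptor genes lie in a cluster on chromosome 8 that spans 205 kb with TNFRSF10C. TNFRSF10A (ENSG00000104689; 23190452 to 23225126, minus strand) encodes the death receptor DR4. Its level was 173, 178, 203 and 183 CPM in the DMSO libraries and 281, 227, 257 and 240 CPM in the dTAGV1 libraries, in replicate order. The increase, 1.36-fold, was the smallest of the 4 receptors, with a log2 fold change of 0.45 ± 0.08 SE (edgeR, Benjamini-Hochberg adjusted p = 2.58e-05). Its means were 184 ± 13.2 and 251 ± 23.2 CPM (SD, n = 4 each).

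TNFRSF10D (ENSG00000173530; 23135588 to 23164030, minus strand) encodes a decoy receptor that binds TRAIL but has a truncated death domain. It stood at 64.8, 59.6, 55.2 and 75.9 CPM with DMSO and at 139, 128, 144 and 134 CPM with dTAGV1. With means of 63.9 ± 8.93 and 136 ± 6.79 CPM (SD, n = 4 each), it rose 2.13-fold, the largest increase of the 9 genes by sense counts, though not by counts irrespective of strand, where TNFRSF10B is ahead at a log2 fold change of 2.93 against 1.07. The fitted log2 fold change came to 1.09 ± 0.09 SE (edgeR, Benjamini-Hochberg adjusted p = 3.49e-10), and it ranked 782 of 12618 tested genes by increase.

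TNFRSF10B (ENSG00000120889; 23020133 to 23069179, minus strand) encodes DR5, the other TRAIL death receptor and a known target of p53 and of the stress factor CHOP. Levels were 92.6, 99.6, 97.4 and 102 CPM with DMSO and 162, 142, 153 and 171 CPM with dTAGV1. The spread within the DMSO group was small, and all dTAGV1 libraries lay well above it. The mean rose 1.60-fold, from 97.9 ± 3.95 to 157 ± 12.0 CPM (SD, n = 4 each), with a log2 fold change of 0.68 ± 0.08 SE (edgeR, Benjamini-Hochberg adjusted p = 6.85e-08).

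The difference in TNFRSF10B was not even over its reads. Its annotated 3′ end at 23020133 overlaps the 3′ end of RHOBTB2 on the other strand by 67 bases in GENCODE 29. A second end is annotated at 23022311, 2178 bases upstream. Sense reads of TNFRSF10B that also touch RHOBTB2 appear as opposite-strand counts of RHOBTB2, which splits the reads into those at the far 3′ end and the rest. With DMSO 303, 369, 329 and 373 reads lay in the overlap and 36, 44, 36 and 39 outside it. With dTAGV1 296, 215, 240 and 373 lay in it, and 274, 256, 281 and 348 outside.

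The share of TNFRSF10B reads outside the overlap was thus 10.2% ± 0.584 with DMSO and 51.2% ± 3.46 with dTAGV1 (SD over 4 libraries each). On the CPM scale, reads outside stood at 9.92 ± 0.469 with DMSO and 80.0 ± 2.92 with dTAGV1, a ratio of 8.06. Reads in the overlap stood at 88.0 ± 3.92 and 76.9 ± 10.9 CPM, and here the groups overlapped, at 82.8 to 92.2 and 64.9 to 88.2 CPM. When the test was run on counts irrespective of strand, in which reads shared with RHOBTB2 are given to neither gene, TNFRSF10B had 36 to 47 counts with DMSO and 265 to 357 with dTAGV1. The fitted log2 fold change then came to 2.93 ± 0.12 SE (edgeR, Benjamini-Hochberg adjusted p = 1.05e-16), in a fit in which 56.1% of 12832 genes differed. The split was made after the values were seen. It rests on the annotation behind the counts, which is not given in the sources used here, and does not show where in the gene the reads outside lie.

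RHOBTB2 itself moved the other way. It had 130, 136, 139 and 140 sense counts with DMSO and 53, 69, 30 and 71 with dTAGV1, a log2 fold change of -1.18 ± 0.17 SE (edgeR, Benjamini-Hochberg adjusted p = 1.60e-06). By the same overlap, sense reads of RHOBTB2 that touch TNFRSF10B appear as opposite-strand counts of TNFRSF10B, so these counts are not a separate result. They numbered 117 to 132 with DMSO and 27 to 66 with dTAGV1, and fell by 1.34 on the log2 scale (edgeR, Benjamini-Hochberg adjusted p = 1.22e-07). The background was 48.4% called among the 3324 genes testable on that strand. Sense counts were 8.28 to 8.48 times the opposite-strand counts in these libraries. Opposite-strand counts stayed out of the TNFRSF10B levels in CPM above. The counts irrespective of strand do include opposite-strand reads not shared with RHOBTB2. In dTAGV1 replicate 1 they came to 289, against 274 sense reads outside the overlap.

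For TNFRSF10A the same split gave no such shift. In this gene, whose last 224 bases overlap TNFRSF10A-AS1, 24.9% ± 2.36 of reads lay in the overlap with DMSO and 26.7% ± 0.662 with dTAGV1 (SD over 4 libraries each), and the groups overlapped. FADD overlaps AP000879.1 over its last 1100 bases, which hold 97.1% to 100% of its reads in every library, so the split could not show a shift there. For TNFRSF10D, XIAP and BIRC5 counts with and without regard to strand differed by at most 3 reads in any library, so no split was possible.

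**Figure D2:**
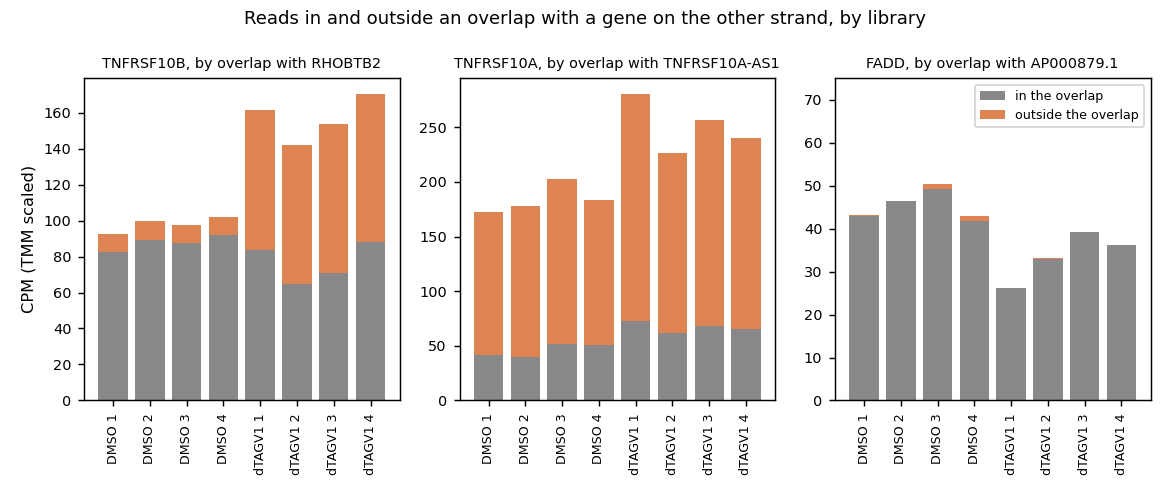
CPM after TMM scaling in each library (bars, from 0) for TNFRSF10B, TNFRSF10A and FADD, split into reads inside (grey) and outside (orange) the overlap with a gene on the other strand. For TNFRSF10B the part outside takes 9.47% to 10.7% of the reads in the DMSO libraries and 48.1% to 54.4% in the dTAGV1 libraries.

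Within the receptor pool, TNFRSF10D gained share. The 4 receptors together held 355 to 400 CPM in the DMSO libraries and 561 to 627 CPM in the dTAGV1 libraries. TNFRSF10D made up 16.8% ± 2.38 of the pool with DMSO and 22.8% ± 0.783 with dTAGV1, and TNFRSF10A 48.3% ± 1.90 and 41.9% ± 2.20 (SD, n = 4 each). Neither share overlapped between the groups. FAS, at 9.15% ± 1.64 and 9.02% ± 1.79, and TNFRSF10B, at 25.7% ± 1.02 and 26.2% ± 1.43, moved by less than 1 SD. A share within a library does not depend on the scaling, and it shows unequal change only. The tables carry a separate total for reads that map to several places, so reads on stretches that these paralogs share may be missing from their counts.

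FADD (ENSG00000168040; chromosome 11, 70203163 to 70207390, plus strand), the adaptor that joins receptor and caspase-8, moved against its partners. Its level was 43.2, 46.5, 50.4 and 43.0 CPM with DMSO and 26.1, 33.2, 39.2 and 36.2 CPM with dTAGV1. It fell from 45.8 ± 3.49 to 33.7 ± 5.61 CPM (SD, n = 4 per group), or a log2 fold change of -0.44 ± 0.12 SE (edgeR, Benjamini-Hochberg adjusted p = 0.00295). dTAGV1 replicate 1 was the lowest library, and without it the log2 fold change was -0.35. Counted irrespective of strand, FADD had 0 to 7 reads in a library, because AP000879.1 lies over its 3′ end, and was not tested.

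CASP8 and CFLAR lie on chromosome 2 in a row with CASP10, a further initiator caspase, all on the plus strand. CASP8 (ENSG00000064012; 201233443 to 201287711) was at 51.4, 57.6, 62.7 and 61.6 CPM with DMSO and at 81.6, 88.2, 101 and 88.2 CPM with dTAGV1. Its means of 58.3 ± 5.12 and 89.8 ± 8.26 CPM (SD, n = 4 each) differ by a log2 fold change of 0.62 ± 0.10 SE (edgeR, Benjamini-Hochberg adjusted p = 4.51e-06). CFLAR (ENSG00000003402; 201116104 to 201176687) was at 71.9, 85.6, 75.2 and 72.2 CPM and at 100, 107, 98.7 and 113 CPM. The means were 76.2 ± 6.44 and 105 ± 6.61 CPM (SD, n = 4 per group), with a log2 fold change of 0.46 ± 0.09 SE (edgeR, Benjamini-Hochberg adjusted p = 7.13e-05). CASP10 starts 6193 bases after the end of CFLAR and ends 4036 bases before CASP8. It rose too, by 1.42 on the log2 scale, from 8.48 ± 1.37 to 22.9 ± 1.64 CPM. The small nuclear RNA gene RNU7-45P, inside CFLAR on the same strand, had 10 to 21 counts with DMSO and 23 to 30 with dTAGV1. GENCODE 29 lists 12 ends of protein-coding CFLAR transcripts, 6 of CASP8, and 3 each of FAS, XIAP and BIRC5. Use of single ends was not measured here.

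Ratios taken within a library, which no scaling changes, set these partners side by side. The FADD to CASP8 ratio of reads was 0.788 ± 0.0615 with DMSO and 0.373 ± 0.0385 with dTAGV1 (SD over 4 libraries each), without overlap. For CFLAR to CASP8 it was 1.31 ± 0.152 and 1.18 ± 0.137, and here the groups overlapped, at 1.17 to 1.49 and 0.974 to 1.28. The ratio of XIAP to CASP8 went from 2.26 ± 0.250 to 0.534 ± 0.106, again without overlap. The protocol gives about a read per transcript whatever its length, so the ratios are of 3′-end reads and were not divided by length.

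XIAP (ENSG00000101966; chromosome X, 123859724 to 123913979, plus strand), a direct inhibitor of caspases, fell about as far as BIRC5, the other strongly reduced member. Which of the pair fell further depended on single libraries: BIRC5 did without DMSO replicate 1 (-1.49 against -1.45 on the log2 scale), DMSO replicate 4 (-1.49 against -1.41) or dTAGV1 replicate 1 (both -1.42). The level of XIAP was 132, 129, 122 and 140 CPM with DMSO and 45.4, 37.2, 49.5 and 59.1 CPM with dTAGV1. The highest dTAGV1 library was thus far below the lowest DMSO library. The fall from 131 ± 7.37 to 47.8 ± 9.14 CPM (SD, n = 4 each) was 2.72-fold, a log2 fold change of -1.44 ± 0.11 SE (edgeR, Benjamini-Hochberg adjusted p = 2.71e-11). It ranked 528 of 12618 tested genes by decrease.

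BIRC5 (ENSG00000089685; chromosome 17, 78214186 to 78225636, plus strand) varied more than XIAP between the DMSO libraries. It was at 185, 302, 268 and 184 CPM with DMSO and at 96.4, 75.8, 86.0 and 101 CPM with dTAGV1. Among the DMSO libraries, replicates 2 and 3 were high and replicates 1 and 4 low. Means were 235 ± 59.7 and 89.7 ± 11.1 CPM (SD, n = 4 each), a 2.61-fold decrease with a log2 fold change of -1.38 ± 0.19 SE (edgeR, Benjamini-Hochberg adjusted p = 0.000193). RNA was taken from cells in bulk, so fewer cells that express a gene and less RNA per cell cannot be told apart.

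The partners of survivin in the chromosomal passenger complex, which guides chromosome attachment and cell division, formed a list of 3, and 3 of 3 fell, where 28.5% of all tested genes did. AURKB, its kinase, was at 131, 199, 184 and 118 CPM with DMSO and at 43.4, 40.5, 33.3 and 55.8 CPM with dTAGV1. The fitted log2 fold change came to -1.86 ± 0.22 SE (edgeR, Benjamini-Hochberg adjusted p = 9.50e-05). CDCA8 (borealin) had a log2 fold change of -1.67 and INCENP, the scaffold, one of -0.95 (standard errors 0.17 and 0.13). DMSO replicates 2 and 3 were the highest 2 libraries for all 3 partners, as for BIRC5. The BIRC5 to AURKB ratio, 1.41 to 1.55 with DMSO and 1.81 to 2.58 with dTAGV1, was higher in every dTAGV1 library.

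Other inhibitors of apoptosis moved in both directions. Of 6, 3 had enough counts to test, of which 2 rose and 1 fell, where 29.4% of all tested genes rose and 28.5% fell. BIRC3 (cIAP2), a ubiquitin ligase of TNF receptor complexes and a known NF-kB target, was at 24.6, 13.0, 10.4 and 15.8 CPM with DMSO and at 171, 103, 102 and 118 CPM with dTAGV1. This 7.78-fold increase (log2 fold change 2.96, standard error 0.27, edgeR, Benjamini-Hochberg adjusted p = 2.42e-05) was larger than that of any of the 9 genes, and replicate 1 was the highest in both groups. BIRC2 (cIAP1), its neighbour on chromosome 11, fell from 108 ± 10.3 to 58.1 ± 6.17 CPM (SD, n = 4 per group), or a log2 fold change of -0.88 (edgeR, Benjamini-Hochberg adjusted p = 2.48e-08). BIRC6, a giant ligase of the family, rose by 0.29 on the log2 scale (edgeR, Benjamini-Hochberg adjusted p = 0.00204). BIRC3 and XIAP changed places within the libraries, with a BIRC3 to XIAP ratio of 0.0850 to 0.187 with DMSO and 2.00 to 3.78 with dTAGV1.

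**Figure D3:**
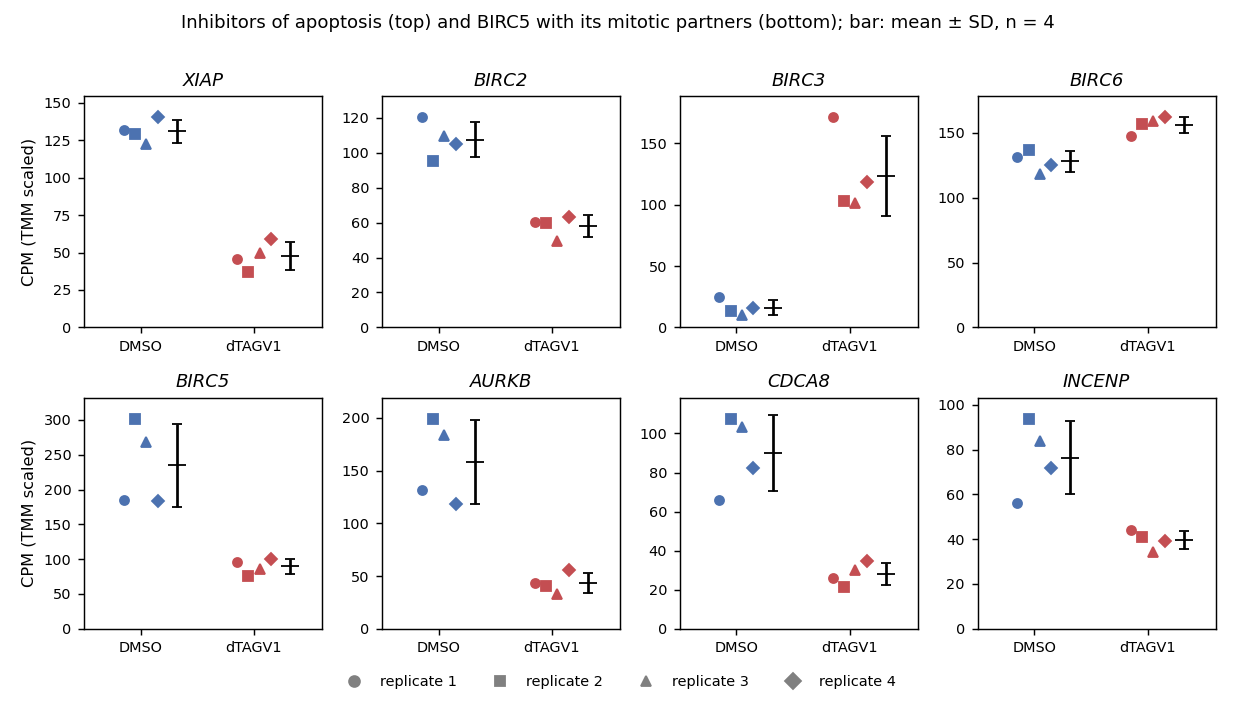
Level of 4 inhibitors of apoptosis (top) and of BIRC5 with 3 mitotic partners (bottom) in each library, in CPM after TMM scaling (axes from 0), with one symbol per replicate and bars for the mean ± SD (n = 4 per group). XIAP and BIRC2 lie lower and BIRC3 and BIRC6 higher with dTAGV1, and BIRC5, AURKB, CDCA8 and INCENP are all lower.

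Beyond the 9 genes, 51 others of the pathway were listed, of which 33 had enough counts to be tested. Of these, 12 rose, 13 fell and 8 did not pass the test, a share of called genes to be read against the 57.9% above. Their median log2 fold change was -0.10, against 0.01 over all tested genes. These counts include the 3 chromosomal passenger partners, all lower. Without those partners 30 genes were tested, of which 12 rose and 10 fell, with a median log2 fold change of -0.06.

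None of the 5 ligand genes could be tested. TNF, LTA and TNFSF15 had 0 counts in all libraries, FASLG 6 over all 8, and TNFSF10 (TRAIL) at most 8 in a library. Among further receptors, TNFRSF1A, the TNF receptor with a death domain, rose from 67.9 ± 8.88 to 148 ± 12.5 CPM (SD, n = 4 per group), or a log2 fold change of 1.12 (edgeR, Benjamini-Hochberg adjusted p = 2.45e-10). TNFRSF21 (DR6) rose by 1.40 on that scale and TNFRSF25 (DR3) had a log2 fold change of -0.59 (edgeR, Benjamini-Hochberg adjusted p = 8.30e-13 and 0.00325). When counted irrespective of strand, TNFRSF25 did not pass, at -0.26 (edgeR, Benjamini-Hochberg adjusted p = 0.574).

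Of 9 tested adaptors, kinases and ubiquitin enzymes of receptor complexes, 2 rose, 3 fell and 4 did not pass. Over all tested genes 29.4% rose and 28.5% fell, 57.9% in either direction. TRADD, the adaptor of TNFRSF1A, fell as FADD did, from 32.9 ± 2.57 to 21.4 ± 5.16 CPM (SD, n = 4 per group), or a log2 fold change of -0.61 (edgeR, Benjamini-Hochberg adjusted p = 0.000970). RBCK1, of the linear ubiquitin ligase, and FAF1, a FAS-associated factor, fell by 0.48 and 0.46 on the log2 scale. RIPK1, a kinase of these complexes, was at 90.9 ± 9.28 and 84.6 ± 9.91 CPM, and its interval of the log2 fold change ran from -0.30 to 0.09 (95%; edgeR, Benjamini-Hochberg adjusted p = 0.361). CYLD, a deubiquitinase, rose by 0.87.

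Among other caspases 4 of 7 tested rose, 1 fell and 2 did not pass, where 29.4% of all tested genes rose and 28.5% fell. CASP6, an executioner, rose by 0.97 on the log2 scale, CASP10 by 1.42 as above, and CASP4, an inflammatory caspase, by 1.82 (edgeR, Benjamini-Hochberg adjusted p = 6.77e-07, 8.21e-08 and 3.45e-10). CASP9, the initiator of the mitochondrial route, fell from 8.97 ± 1.24 to 4.79 ± 0.824 CPM (SD, n = 4 per group), or a log2 fold change of -0.88 (edgeR, Benjamini-Hochberg adjusted p = 0.00217).

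Downstream, APAF1, the apoptosome scaffold, rose by 0.82 on the log2 scale (edgeR, Benjamini-Hochberg adjusted p = 3.97e-07). CYCS (cytochrome c) and BID, which caspase-8 cleaves to reach mitochondria, fell by 0.27 and 0.37 on that scale (edgeR, Benjamini-Hochberg adjusted p = 0.00381 and 0.00320). BID did not pass when counted irrespective of strand (edgeR, Benjamini-Hochberg adjusted p = 0.118). HTRA2, a mitochondrial protease that binds XIAP, rose by 0.39 (edgeR, Benjamini-Hochberg adjusted p = 0.0422), a call lost in 8 of 14 alternatives, among them leaving out DMSO replicate 3 or 4 or dTAGV1 replicate 3 or 4. DFFA, the inhibitor of the apoptotic DNase and a caspase substrate, fell from 313 ± 25.7 to 114 ± 8.86 CPM (SD, n = 4 per group), or a log2 fold change of -1.45, close to that of XIAP (edgeR, Benjamini-Hochberg adjusted p = 1.72e-13). PARP1, another caspase substrate, fell by 0.34 (edgeR, Benjamini-Hochberg adjusted p = 0.000263).

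**Figure D4:**
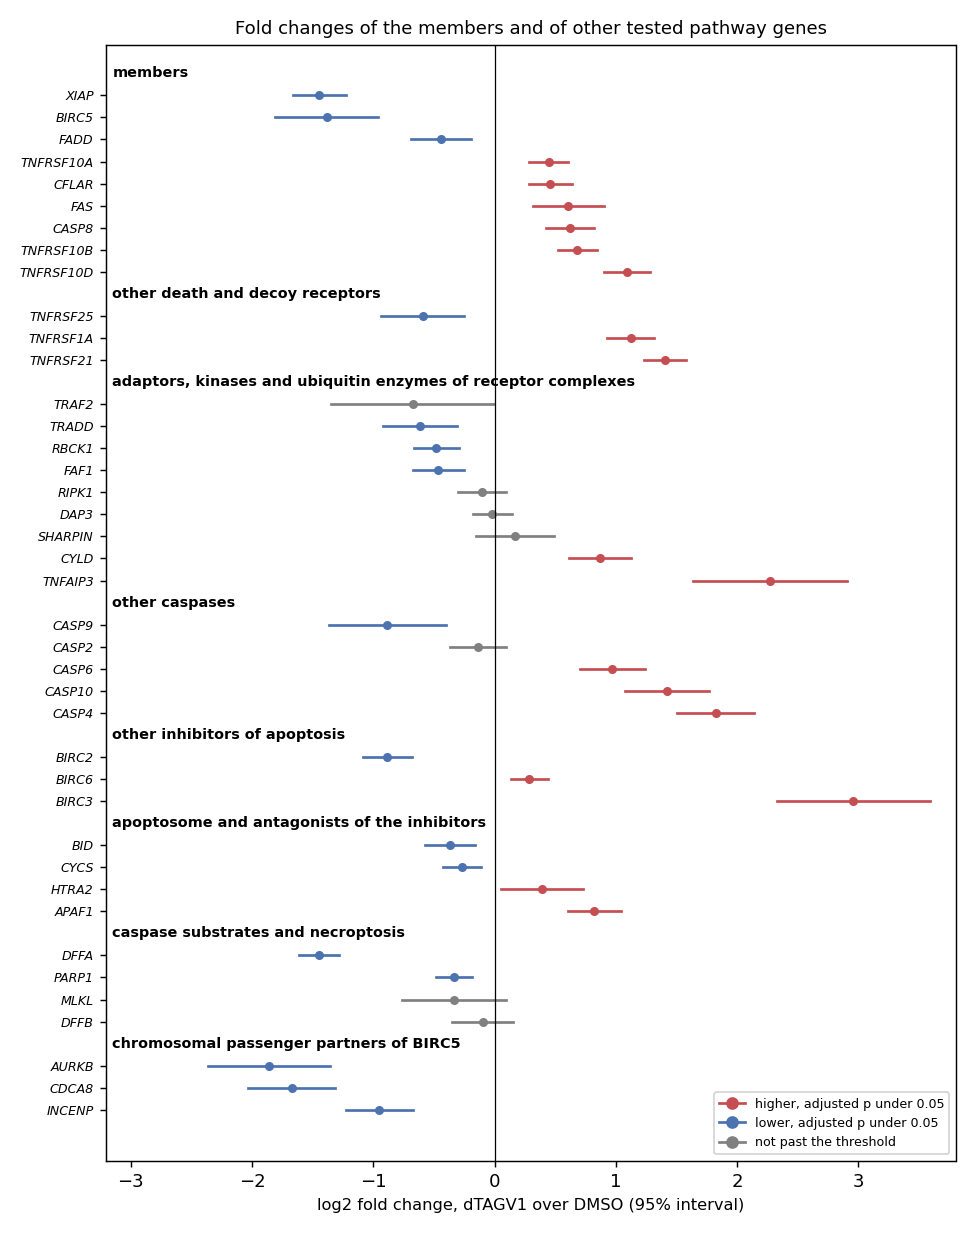
Log2 fold change of dTAGV1 over DMSO (horizontal axis) with its 95% interval for the 9 genes and for other tested pathway genes, grouped by role. Red points are higher and blue points lower at a Benjamini-Hochberg adjusted p under 0.05 (edgeR), and grey points did not pass. The adaptors, caspases and inhibitors hold points of both colours, and the chromosomal passenger partners are all blue.

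Patterns most like those of the 2 members with the largest changes were sought among 9248 genes with a symbol and a mean of at least 10 CPM, by the Euclidean distance of log2 CPM, centred on each gene's mean, over the 8 libraries. Closest to XIAP was AHNAK, at a distance of 0.26, with a log2 fold change of -1.43. Closest to BIRC5 were MKI67, a marker of dividing cells, and PSMC3IP, at distances of 0.28 and 0.29, with log2 fold changes of -1.36 and -1.47. The distance includes the difference between the groups, so similar fold changes follow from the way these genes were picked.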

How the data were processed

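The deposited values are whole-number read counts per Ensembl gene from QuantSeq forward 3′ libraries, made from total RNA per the labels' protocols. STAR, HTSeq, fastp, FastQC, DESeq2 and GRCh38 are named, without role or version, per the submitters' processing notes; the gene annotation and any removal of PCR copies are not given in the sources used here. Counts on the strand of the gene were used. The 4 totals of reads given to no gene, 56.7% to 62.8% of reads, were left out. Among these, reads outside any counted gene were 30.1% to 33.7% of uniquely mapped reads with DMSO and 35.9% to 37.4% with dTAGV1. The part of this difference in the results was not tested. All 78932 genes entered edgeR 4.0.16 (R 4.3.3): filterByExpr, TMM, robust quasi-likelihood F test, dTAGV1 against DMSO, Benjamini-Hochberg adjustment over 12618 tested genes. The test was tested on simulated data. Standard errors are the absolute log2 fold change over the square root of F. Symbols matched all 9 members, and coordinates are those of GENCODE 29, counted from 1, which is not stated to be the authors' annotation.

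Alternatives were RLE or library-size scaling, no filter, a mean of at least 100 counts, DESeq2 1.42.0, limma-voom (limma 3.58.1), counts irrespective of strand, a replicate block and leaving out each library. Pairs of libraries of a group differed by more than sampling noise (chi-square per degree of freedom 1.89 to 5.62). The members and lists were chosen with earlier results of these data known. Named were all 9 members, called pathway genes whose mean reached 10 CPM, a few further pathway genes whatever their values, overlapping genes and the nearest patterns. Figures used matplotlib 3.10.9. Some genes that the rule would name are not reported here, in the text or in the figures.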

Additional observations from a re-analysis of the deposited data

Results flagged for a closer look

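Opposite-strand counts of FAS, which enter none of the levels reported, were above those of the DMSO libraries in every dTAGV1 library. They were 9, 16, 9 and 16 with DMSO and 33, 26, 38 and 59 with dTAGV1 in replicate order, a log2 fold change of 1.60 ± 0.27 SE (edgeR, Benjamini-Hochberg adjusted p = 9.67e-06). ACTA2, which overlaps the start of FAS on the other strand by 758 bases, had 27 to 47 sense counts with DMSO and 19 to 39 with dTAGV1. Its log2 fold change was -0.40 (edgeR, Benjamini-Hochberg adjusted p = 0.128). The source of the opposite-strand reads was not tested.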

How the results depend on the processing

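All 143 alternative values of the 9 genes kept direction and call. TNFRSF10B ranged from 0.61 to 2.93, the latter with counts irrespective of strand, in which FADD was not tested and 8 members were called. Among alternative values for other pathway genes, 502 kept their call, 10 were weaker, 3 stronger and 2 reversed in sign. Those 2 were for DAP3 (-0.02, not called), which ran from -0.0578 to 0.0131 without 1 library at a time, at 0.0131 without DMSO replicate 3 and 0.00439 without dTAGV1 replicate 1. Alternatives called 19 to 27 of the pathway genes, against 25. Requiring a mean of at least 100 counts left 4120 genes called, with fewer tested. Scaling by library size moved the median of all tested genes to -0.06, and the 9 directions held. The replicate numbers gave no clear sign of pairing, though such a check cannot exclude it. Correlations of deviations were 0.131, -0.0176, 0.0232 and 0.0340, and 3 of 8 libraries correlated best with their own number. With the replicate block, 7434 genes, 24 pathway genes and 9 members were called, XIAP at -1.46 and BIRC5 at -1.35 (edgeR, Benjamini-Hochberg adjusted p = 0.00659). Without 1 library at a time, FAS ranged from 0.48 to 0.73, FADD from -0.53 to -0.35, XIAP from -1.59 to -1.36 and BIRC5 from -1.49 to -1.24. Depth limits genes with few reads, such as the ligands.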

Other observations

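TNFAIP3 (A20), a ubiquitin-editing enzyme of TNF receptor complexes and a known NF-kB target, fell outside the naming rule by its low mean and was chosen after its values were seen. It had 19, 10, 12 and 8 counts with DMSO and 85, 36, 52 and 48 with dTAGV1, a log2 fold change of 2.27 ± 0.30 SE (edgeR, Benjamini-Hochberg adjusted p = 1.68e-06).

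Several listed genes were at or near 0 where the annotation overlaps. RNF31, the catalytic subunit of the linear ubiquitin ligase, had 0 sense counts in all 8 libraries. In GENCODE 29 it overlaps AL136295.5 on the same strand, which was also at 0. DIABLO, an antagonist of XIAP, had 16 sense and 40 opposite-strand counts over all libraries. On the same strand it overlaps a second entry named DIABLO and AC048338.1, each with 0 counts. The tables hold a separate total for reads that fit more than 1 gene, 2.96% to 3.16% of uniquely mapped reads, so the levels of RNF31 and DIABLO were not read as expression.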
